A study of Mus musculus with 8 samples.

Results

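The genes of glutathione use were examined in adult male C3H/HeN mice, in the nucleus accumbens (NAc), which is the ventral part of the striatum and takes part in reward. Members were the array probes whose gene name marks a glutathione S-transferase, a microsomal transferase, a glutathione peroxidase or a gamma-glutamyl transferase, together with Gclc, Gclm, Gss, Gsr, Gstcd, Hpgds and Glo1. This rule took 42 genes (64 probes) out of 34741 gene names (55681 probes other than controls) and reads gene names, not measured values. The members were nonetheless chosen with earlier results of these data known, so their shares below are a description and not a test. In the MS group (4 mice), pups underwent maternal separation on postnatal days 2 to 14 while their dams received unpredictable stress. In the control group (4 mice), pups stayed undisturbed with their dams. All mice were weaned on day 21, later worked for palatable milk in operant cages, and were food deprived before the NAc was punched from frozen slices. For each mouse 40 ng of total RNA was labelled and hybridised to 1 Agilent array, and all 8 arrays shared 1 slide.

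Glutathione is a tripeptide made from glutamate, cysteine and glycine, and it is the main thiol buffer of brain cells. Glutamate-cysteine ligase and glutathione synthetase build it, glutathione reductase returns the oxidised form to the reduced one, and gamma-glutamyl transferases start its breakdown outside the cell. Transferases join it to reactive molecules such as the aldehydes of lipid peroxidation, and peroxidases use it to remove peroxides. In brain, astrocytes hold much of this machinery and supply neurons with precursors.

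Several of these transferases come from gene clusters with similar sequences, so some probes of related genes are shown first, 5′ to 3′ as designed on the array. In the 3 mu probes, capitals mark bases that were identical in all 3 aligned probes. In the 2 pi probes, they mark bases identical between both. The Gsta4 probe has no relative here and stands in lower case.
Gstm3: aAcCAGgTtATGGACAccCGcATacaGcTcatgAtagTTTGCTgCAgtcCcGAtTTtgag
Gstm6: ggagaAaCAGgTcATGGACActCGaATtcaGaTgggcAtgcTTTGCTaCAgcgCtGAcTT
Gstm7: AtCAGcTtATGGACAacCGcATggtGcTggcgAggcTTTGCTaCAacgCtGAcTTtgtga
Gstp1: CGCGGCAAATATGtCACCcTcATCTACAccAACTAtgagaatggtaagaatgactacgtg
Gstp2: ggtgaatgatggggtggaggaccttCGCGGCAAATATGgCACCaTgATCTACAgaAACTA
Gsta4: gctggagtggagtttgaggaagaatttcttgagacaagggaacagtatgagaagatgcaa

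The mu probes lie within the chromosome 3 cluster (mm9), on the minus strand, at chr3:107769290-107770549 for Gstm3, chr3:107745052-107745111 for Gstm6 and chr3:107732073-107733247 for Gstm7. The spans of Gstm3 and Gstm7 are longer than their 60 bases, as for probes that cross an intron. Identity over the aligned bases was 39 of 56 between Gstm3 and Gstm6, 40 of 59 between Gstm3 and Gstm7, and 41 of 55 between Gstm6 and Gstm7. The Gstp1 probe (chr19:4035908-4036723) and the Gstp2 probe (chr19:4040983-4041042) matched at 30 of 35 aligned bases. The Gsta4 probe lies at chr9:78046172-78047344 on the plus strand. How much of the signal of 1 family member reaches the probe of another was not tested.

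Each level below is the log2 processed signal of a probe minus the 75th percentile of its array, so that 0 is that percentile and 1 unit is a 2-fold difference. Differences are MS minus control on this scale. Of the 42 genes, 38 (55 probes) passed the background filter (a signal well above background on 4 or more of 8 arrays) and were tested. Gsta2, Gpx5 and Gstt4 were well above background on no array, and Mgst2 only on 1 MS and 1 control array. A gene with several tested probes is given by the one with the highest mean level. Arrays had 57.3% to 69.7% of their probes well above background, the highest being control 4. The 75th percentile signals lay between 294 and 358 in MS arrays and between 270 and 389 in control arrays.

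Most transferases read lower in MS mice, and the genes that make and recycle glutathione showed differences near 0, but no single member passed the adjusted test. With limma adjusted over all probes, 0 of 38 member genes passed the threshold of 0.05, as did 0.0132% of all 22759 tested genes (3 genes, of which Sparc and Lhx5 were lower and ENSMUST00000097355 higher). At an unadjusted limma p under 0.05, 13 member genes were lower and 1 was higher, that is 36.8% of members in either direction, against 13.8% of all tested genes (7.95% lower and 5.88% higher). The 4 MS and 4 control values did not overlap in 10 genes that were lower and 1 that was higher, where 5.25% of all genes were lower and 3.74% higher without overlap. The difference was below 0 in 28 of 38 member genes (73.7%), against 49.9% of all genes. The median difference of the members was -0.14, and that of all tested genes was 0.000192. Scaling by the array median in place of the 75th percentile left 8 member genes lower and 0 higher at the unadjusted p, with 5.33% of all genes lower. The tissue was punched in bulk, so fewer cells of a type and less RNA per cell cannot be told apart. Astrocyte markers were below 0 as well in 11 of 14 genes (median -0.16). So were 10 of 11 oligodendrocyte markers (median -0.21), 10 of 10 microglial markers (median -0.19) and 8 of 8 pallidal markers (median -1.12). Medium spiny neuron markers were above 0 in 12 of 12 genes (median 0.31).

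**Figure D1:**
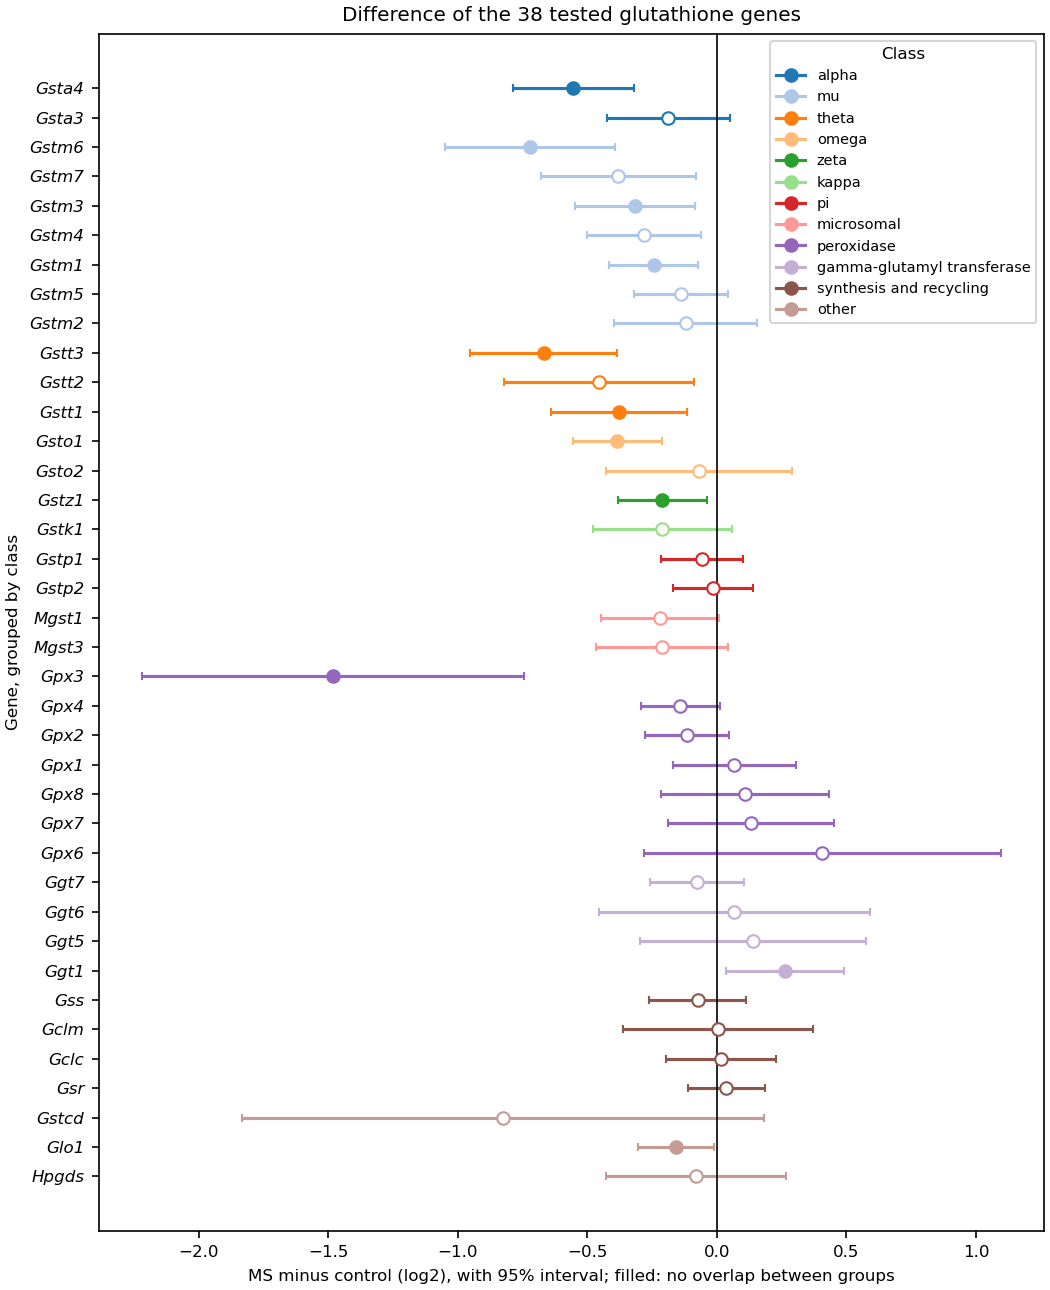
MS minus control (log2) of the 38 tested genes with its 95% interval, coloured by class, with filled points where the 4 MS and the 4 control values did not overlap. All 7 mu and all 3 theta points lie below 0, Gpx3 stands farthest left at -1.48, and the 4 genes of synthesis and recycling lie between -0.07 and 0.04.

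The alpha class conjugates products of lipid peroxidation, and Gsta4 is its member best known for 4-hydroxynonenal. Gsta4 stood at -0.54, -0.70, -0.57 and -0.55 in MS mice, against -0.11, -0.23, -0.03 and 0.22 in control mice. The groups did not overlap, and the MS values lay close together. Gsta4 averaged -0.59 ± 0.0743 in MS mice and -0.04 ± 0.191 in control mice (SD, n = 4 each), a difference of -0.55 (SE 0.102, 95% interval -0.79 to -0.32, limma adjusted p = 0.0958). In linear terms its level in MS mice was 68.1% of that in control mice. Gsta3, the other tested alpha gene, read 0.15, 0.30, -0.05 and 0.16 in MS mice and 0.37, 0.31, 0.14 and 0.51 in control mice. Its groups overlapped, with a difference of -0.19 (limma adjusted p = 0.462).

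The mu class is the largest transferase family of the mouse and is encoded in 1 cluster on chromosome 3. All 7 of its genes were measured, all had a difference below 0 (-0.72 to -0.12, median -0.28), and 5 had an unadjusted limma p under 0.05, all lower. Among all tested genes 49.9% were below 0 and 7.95% were lower at that p. Gstm6 had levels of -0.49, -0.67, -0.88 and -0.73 in MS mice, against 0.01, -0.32, 0.11 and 0.33 in control mice. No MS mouse reached the lowest control mouse. The difference of Gstm6 was -0.72 (SE 0.144, 95% interval -1.05 to -0.39, limma adjusted p = 0.104), which puts MS at 60.7% of control. This probe lies at chr3:107741766-107741825. Its 3 other tested probes gave -0.64, -0.75 and -0.81. The probe with -0.75 was dim and overlapped between groups (SE 0.473). There control 3 read -2.27, against -4.16 to -4.09 in the other control mice, and normexp background correction gave -0.24. The probe with -0.81, printed above, had -2.82, -3.15, -3.20 and -3.10 in MS mice and -2.12, -2.51, -2.31 and -2.09 in control mice. Its limma adjusted p of 0.0707 was the smallest of any member probe, so that 0 member probes passed 0.05, against 0.0121% of all tested probes.

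Gstm1, an abundant mu transferase of liver and brain, read 4.52, 4.32, 4.36 and 4.40 in MS mice and 4.73, 4.54, 4.69 and 4.62 in control mice. The highest MS value lay just under the lowest control value, and the difference was -0.24 (SE 0.075, limma adjusted p = 0.215). The array headers place this probe at chr5:117082490-117082549, outside the cluster, whereas the other Gstm1 probe (chr3:107815595-107815654) lies inside it and gave -0.25 with overlapping groups. Gstm3 read 1.28, 1.08, 1.02 and 1.22 in MS mice and 1.68, 1.30, 1.49 and 1.39 in control mice. It did not overlap either, with a difference of -0.32 (SE 0.101, limma adjusted p = 0.230). Gstm7 and Gstm4 also had an unadjusted limma p under 0.05, with differences of -0.38 and -0.28, although their groups overlapped. Gstm5, the mu form typical of brain and testis, and Gstm2 had the differences nearest 0, at -0.14 and -0.12. Other tested Gstm2 probes gave -0.25, without overlap between groups, and -0.18, with overlap. All 15 tested mu probes had a difference below 0, against 49.3% of all tested probes.

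**Figure D2:**
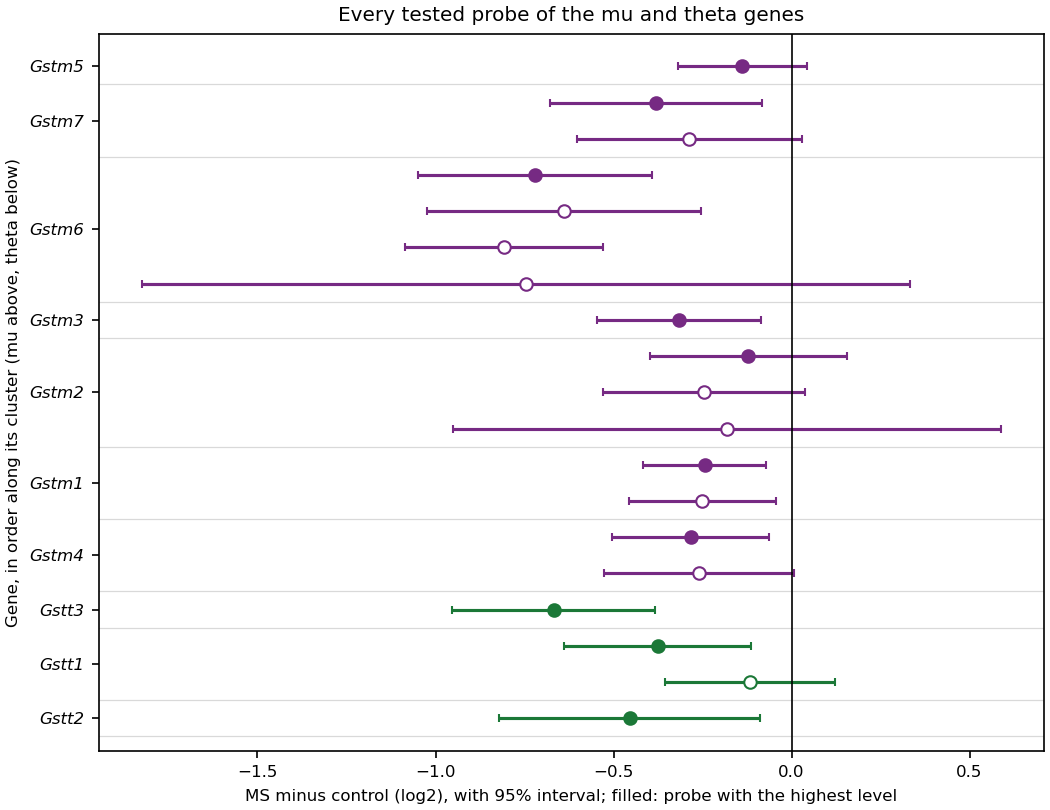
MS minus control (log2) with its 95% interval for every tested probe of the mu and theta genes, in the order of the genes along their clusters, with the probe of highest level filled. Every point lies below 0, and the 4 Gstm6 probes lie between -0.81 and -0.64. The Gstm6 probe at -0.75 has a wide interval (-1.82 to 0.33).

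The theta class, an older branch that handles small halogenated compounds, lies in a cluster on chromosome 10. Its 3 tested genes were all lower at an unadjusted limma p under 0.05 (7.95% of all tested genes were), with a median difference of -0.45. Gstt3 (chr10:75236966-75237025) read -0.87, -1.04, -1.15 and -0.78 in MS mice, against -0.32, -0.43, -0.42 and 0.01 in control mice. The groups stood clearly apart. The difference of Gstt3 was -0.67 (SE 0.125, 95% interval -0.95 to -0.38, limma adjusted p = 0.0982), or 62.9% of control. Gstt1 read 1.65, 1.30, 1.42 and 1.48 in MS mice and 1.73, 1.65, 1.89 and 2.08 in control mice. MS 1 and control 2 nearly met, and the difference was -0.38 (SE 0.115, limma adjusted p = 0.212), while a second, dimmer Gstt1 probe gave -0.12. Gstt2 overlapped between groups and had a difference of -0.45 (limma adjusted p = 0.268).

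Gsto1, an omega transferase that reduces dehydroascorbate and mixed disulfides (chr19:47939128-47939187), read 2.997, 2.894, 2.793 and 2.937 in MS mice, against 3.380, 3.269, 3.175 and 3.334 in control mice. The groups did not overlap, and the SD within each was small beside the difference of their means. Gsto1 averaged 2.91 ± 0.0858 in MS mice and 3.29 ± 0.0887 in control mice (SD, n = 4 each), a difference of -0.38 (SE 0.076, 95% interval -0.56 to -0.21, limma adjusted p = 0.102). Its neighbour Gsto2 had a difference of -0.07, with overlapping groups. Gstz1, the zeta enzyme of tyrosine breakdown, read 2.90, 2.82, 2.66 and 2.81 in MS mice and 3.05, 3.01, 2.91 and 3.07 in control mice. The highest MS and the lowest control mouse nearly met, with a difference of -0.21 (SE 0.075, limma adjusted p = 0.273).

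The remaining transferases overlapped between groups. Gstk1, the kappa enzyme of mitochondria and peroxisomes, read 1.14, 1.06, 1.24 and 1.23 in MS mice and 1.19, 1.19, 1.66 and 1.48 in control mice (difference -0.21, limma adjusted p = 0.465). Mgst3, a membrane-bound enzyme, read 2.31, 2.44, 2.74 and 2.50 in MS mice and 2.83, 2.84, 2.57 and 2.59 in control mice. Its difference was -0.21 (limma adjusted p = 0.435), and that of Mgst1 was -0.22. The pi class, whose protein serves as a marker of mature oligodendrocytes, lay close to 0. The Gstp2 probe of highest level (chr19:4040283-4040342), which is not the one printed above, read 6.65, 6.55, 6.55 and 6.60 in MS mice and 6.56, 6.65, 6.69 and 6.50 in control mice, a difference of -0.02 with a 95% interval of -0.17 to 0.14. Scaling by the array median turned its sign (0.031), and the printed Gstp2 probe had -0.05. Gstp1 had -0.06 (95% interval -0.22 to 0.10).

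**Figure D3:**
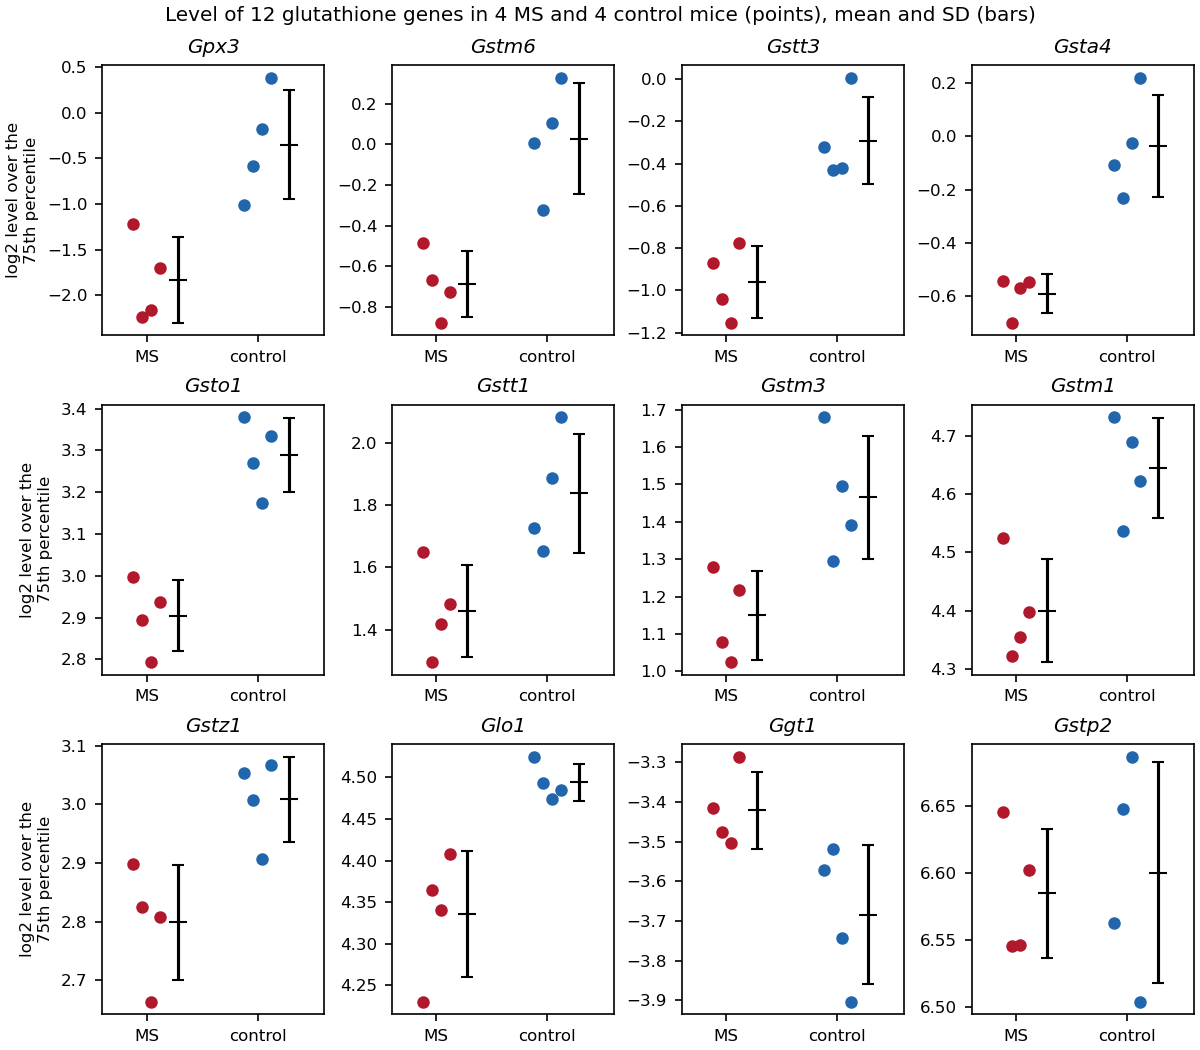
Level of 12 genes (log2 over the 75th percentile of the array) in each MS mouse (red, left) and each control mouse (blue, right), with the group mean and SD beside the points. The groups do not overlap for 11 genes, of which only Ggt1 is higher in MS mice, and they overlap for Gstp2. Each panel has its own axis.

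Among the peroxidases, Gpx3, a secreted selenoenzyme, had the largest difference of all 38 tested genes, and the others lay nearer to 0. Gpx3 (chr11:54723436-54723495) read -1.22, -2.24, -2.16 and -1.70 in MS mice, against -1.01, -0.59, -0.18 and 0.39 in control mice. The groups did not overlap, but each was spread widely, with MS 1 close to control 1. It averaged -1.83 ± 0.472 in MS mice and -0.35 ± 0.596 in control mice (SD, n = 4 each). The difference was -1.48 (SE 0.323, 95% interval -2.22 to -0.74, limma adjusted p = 0.119), or 35.8% of control, and it was -0.93 within the first row of the slide and -2.04 within the second. Within the slide columns it was -1.15, -1.04, -1.11 and -2.62, the last being the column of control 4. Gpx4, which removes lipid hydroperoxides in membranes, read 5.67, 5.69, 5.71 and 5.82 in MS mice and 5.86, 5.93, 5.89 and 5.78 in control mice. Its groups overlapped and its difference was -0.14 (limma adjusted p = 0.395). Gpx1, the common cytosolic form, had 0.07 (95% interval -0.17 to 0.30). Gpx2 had -0.11, the endoplasmic reticulum forms Gpx7 and Gpx8 had 0.13 and 0.11, and Gpx6 had 0.41 with an SE of 0.302.

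The genes of synthesis and recycling had differences between -0.07 and 0.04, and all overlapped between groups. Gclc and Gclm, the catalytic and modifier subunits of glutamate-cysteine ligase, had 0.02 (95% interval -0.20 to 0.23) and 0.01 (95% interval -0.36 to 0.37). Gss, glutathione synthetase, had -0.07 (95% interval -0.26 to 0.11). Gsr, glutathione reductase, read 2.79, 2.93, 2.92 and 2.86 in MS mice and 2.83, 2.91, 2.84 and 2.78 in control mice, with a difference of 0.04 (95% interval -0.11 to 0.18). A second Gsr probe had the opposite sign (-0.08). These intervals leave room for changes in either direction. That of Gclm is wide enough to hold the differences of several transferases, such as Gstm3 (-0.32) and Gstm1 (-0.24).

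Ggt1, which cleaves glutathione at the cell surface, was the only member higher without overlap. It read -3.42, -3.48, -3.50 and -3.29 in MS mice, against -3.57, -3.52, -3.74 and -3.90 in control mice. The groups almost touched, the signal was dim, and the difference was 0.26 (95% interval 0.03 to 0.49, limma adjusted p = 0.300). With normexp background correction it was 0.074 (limma adjusted p = 0.771). Ggt7 read 2.46, 2.38, 2.46 and 2.42 in MS mice and 2.60, 2.63, 2.40 and 2.38 in control mice, with a difference of -0.08. The 2 tested Ggt5 probes differed in sign (0.14 and -0.20), and Ggt6 had 0.07. Glo1, which clears methylglyoxal with glutathione as cofactor, read 4.23, 4.36, 4.34 and 4.41 in MS mice and 4.53, 4.49, 4.47 and 4.48 in control mice. It did not overlap, with a difference of -0.16 (SE 0.064, limma adjusted p = 0.320). Gstcd had -0.82 but an SE of 0.442, and Hpgds had -0.08.

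Across the 38 genes, the median difference was -0.10 within each row of the slide and between -0.21 and -0.12 within its columns. The 5 genes with the smallest p (Gsta4, Gstt3, Gsto1, Gstm6 and Gpx3) were past the adjusted threshold under some other treatments of the same arrays. With normexp background correction and with the deposited log2 table all 5 passed, and with a variance trend and robust moderation all but Gpx3 passed (adjusted p = 0.0771). These treatments called more of the whole array too, 1.76%, 1.35% and 1.74% of genes.

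**Figure D4:**
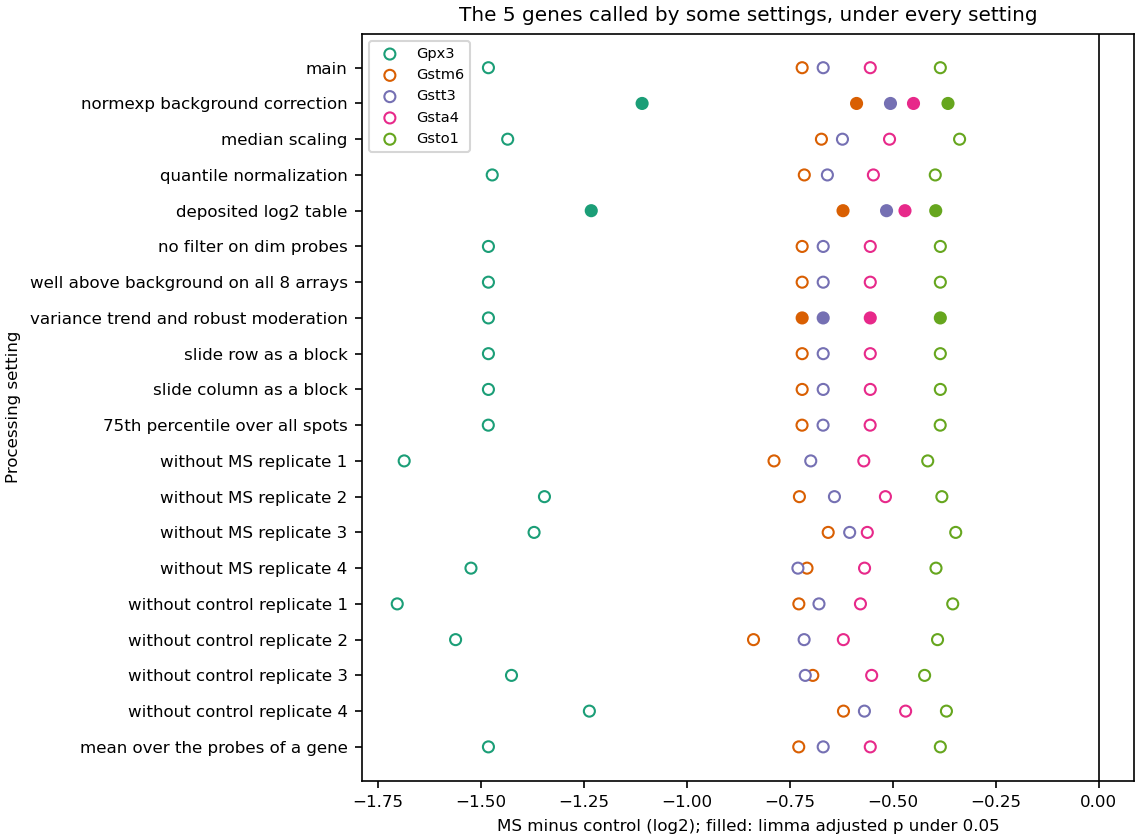
MS minus control (log2, horizontal axis) of the 5 genes with the smallest p under each processing setting (rows), filled where the limma adjusted p was under 0.05. All points lie below 0, and filled points occur in 3 rows.

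Other genes of the glutathione and redox system were counted in the same fit, and none passed the adjusted threshold. The counts at an unadjusted limma p under 0.05 are to be read against 7.95% of all tested genes lower and 5.88% higher, and with lists this short a share such as 3 of 19 or 1 of 12 says little about the list. Of 19 genes in a broad list of glutaredoxins, glutathione-linked enzymes and related genes, 3 had an unadjusted limma p under 0.05, all lower. They were Glrx, which removes glutathione from proteins (difference -0.68, limma adjusted p = 0.102), Ptgds at -0.29 and Clic4 at -0.28. Ptgds is counted here as a prostaglandin synthase and not as a glutathione-dependent enzyme. Of 7 genes of selenoprotein synthesis and transport, 2 were lower at that p, namely Selenop, the selenium carrier (-0.39, limma adjusted p = 0.107), and Pstk (-0.30). Of 7 genes of glutathione breakdown, Oplah (-0.16) and Cndp2 (-0.19) were lower and Anpep (0.18) higher. Of 12 thioredoxin and peroxiredoxin genes, Prdx1 was lower (-0.18), and of 8 genes of NADPH supply, Tkt (-0.19) and Idh1 (-0.21) were lower. None of 9 genes of cysteine supply, 6 of glutathione export, 4 of superoxide and peroxide removal and 13 of Nrf2 and its other targets had an unadjusted limma p under 0.05. Nrf2, the transcription factor that many of these genes respond to, is encoded by Nfe2l2 (-0.09), and its target Hmox1 had -0.14.

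Promoters were searched for the core of the antioxidant response element, the letters TGACNNNGC on either strand, in the 300 bases around each start in RefSeq (GRCm38.p6). Of the 42 member genes, 37 had an entry, and 6 of these (16.2%) held the letters, against 14.0% of all genes. Among members with an unadjusted limma p under 0.05 it was 2 of 12. Examples from the mu, microsomal and synthesis genes are printed, each being the 150 bases before the start on the plus strand, with the match in capitals.
Gstm5: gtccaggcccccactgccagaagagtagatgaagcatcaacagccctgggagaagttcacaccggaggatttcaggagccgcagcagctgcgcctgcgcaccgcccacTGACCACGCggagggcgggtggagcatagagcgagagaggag
Mgst1: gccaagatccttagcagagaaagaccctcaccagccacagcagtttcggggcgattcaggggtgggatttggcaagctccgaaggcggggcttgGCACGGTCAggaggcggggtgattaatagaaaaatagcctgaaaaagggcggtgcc
Gclm: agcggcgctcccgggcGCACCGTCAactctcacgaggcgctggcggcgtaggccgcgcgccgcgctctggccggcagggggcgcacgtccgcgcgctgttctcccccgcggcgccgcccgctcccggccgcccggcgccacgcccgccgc
The Gstm5 stretch is chr3:107895704-107895853, that of Mgst1 chr6:138140377-138140526 and that of Gclm chr3:122245407-122245556. The match starts at -42, -56 and -134 from the gene start. Their differences were -0.14, -0.22 and 0.01, and the match is a description of letters only.

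Marker genes of the cell types in and around the NAc were counted in the same way, against the same shares of all tested genes (7.95% lower and 5.88% higher). Of all tested genes, 49.9% were below 0. Of all these markers, only Sparc, in the subcortical astrocyte list, passed the adjusted threshold (difference -0.88, limma adjusted p = 0.045). All 12 markers of medium spiny neurons, the principal cells of the NAc, were tested and all were above 0 (median 0.31). At an unadjusted limma p under 0.05, 5 of them were higher and 0 lower. Their summed level, in units of the 75th percentile, was 1091 to 1344 in MS mice and 786 to 1171 in control mice. Such sums add linear levels, so the brightest genes of a list weigh most. Of the 14 astrocyte markers, 6 had an unadjusted limma p under 0.05, all lower, with Gfap at -0.66 and Aqp4 at 0.06. Their summed level was 341 to 369 in MS mice and 378 to 429 in control mice, without overlap. Aldoc weighs most in this sum (level 7.96 in MS mice and 8.13 in control mice). Taken singly, 4 of the 14 markers were lower without overlap. All 6 markers of subcortical astrocytes were lower at that p (median -1.14, from -2.45 for Etnppl to -0.66 for Kcnj16). Their sums were 93.9 to 109 in MS mice against 178 to 221 in control mice. These sums mostly reflect Sparc (level 6.54 in MS mice and 7.41 in control mice), since the next brightest gene, Itih3, had 2.62 and 3.89. Of 8 pallidal markers, 7 were lower at that p (median -1.12), led by Npas1 (-2.26) and Pvalb (-2.07). The marker lists were chosen with earlier results of these data known, so their shares are a description and not a test. Oligodendrocyte markers were below 0 in 10 of 11 genes and microglial markers in 10 of 10, with 0 and 1 at that p. For vessels it was 2 of 12 lower and 1 higher, for meninges 1 of 7, for choroid plexus and ependyma 1 of 7, and for blood cells 0 of 4. The defining choroid plexus marker Ttr was too dim to be tested. The part that these cell type markers have in the glutathione genes was not tested.

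**Figure D5:**
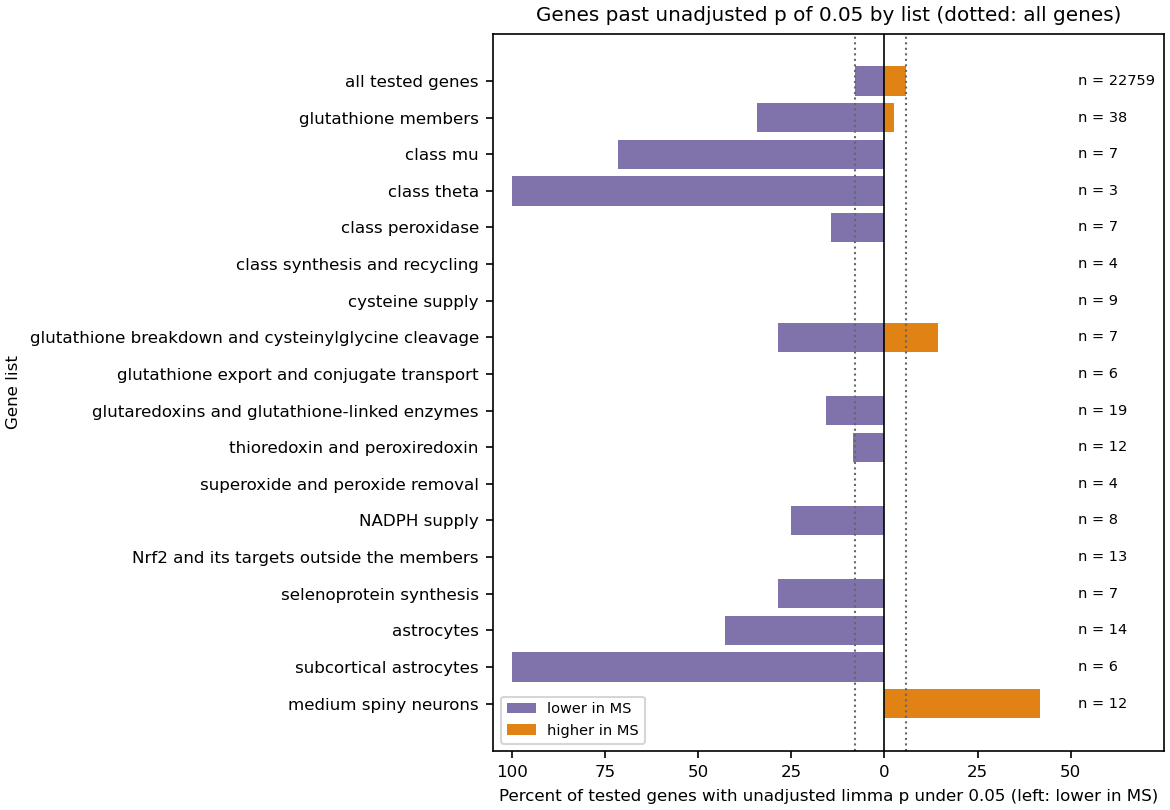
Percent of the tested genes of the lists shown, which are not all classes or marker lists, with an unadjusted limma p under 0.05, lower in MS mice to the left and higher to the right, with dotted lines at the shares of all 22759 tested genes (7.95% lower, 5.88% higher). Among these lists, the bars of the theta class and of subcortical astrocytes reach 100 percent to the left, and synthesis and recycling has no bar. The pathway and marker lists were chosen with earlier results of these data known.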

How the data were processed

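Scanner files give, per the file headers, the intensity of each spot on a linear scale from Agilent Feature Extraction 10.10.1.1, after subtraction of local background in the processed signal. A second table deposited by the authors, with log2 levels of 31261 probes, served as an alternative. It followed the log2 mean signal (correlation 0.9997 or more), each column had a median of 8.01, and its normalization is not given in the sources used here. Coordinates are those of the headers (mm9), whose array design is not the one that the study's methods name.

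Control and outlier spots were left out and spots of a probe averaged. Processed signals were taken to log2 and set to 0 at the array's 75th percentile over probes. The 33111 probes that passed the background filter (4 or more of 8 arrays) were fitted with limma 3.58.1 in R 4.3.3, with Benjamini-Hochberg adjustment. The script was tested on simulated data. Genes given in full were the non-overlapping members with the smallest p and the member of highest level in each class, and in pathway lists up to 4 genes with the smallest p were named. Members and lists were chosen with earlier results of these data known. Alternatives changed background correction, scaling, dim-probe filter, moderation, probe choice, slide position and replicates. The number of arrays limits precision. In each group 3 mice share the leading digit of their individual number, whose meaning the labels do not give. The p-values measure the spread between these mice and treat them as independent. If the digit marks a litter or a cage, they are not independent, and the SEs, intervals and p-values could be too small.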

Additional observations from a re-analysis of the deposited data

Results flagged for a closer look

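In 76 groups of 4 mice (38 genes, 2 groups), 3 held a mouse far from the other 3, and chance marks about 1 in 20. For Gsta4, MS 2 read -0.70, against -0.57 to -0.54 in the other MS mice (gap over range 0.838), and it lay farther from the control mice than they did. For Mgst1, control 2 read 0.09, against 0.44 to 0.45 in the other control mice (0.962). For Ggt5, control 3 read -4.09, against -3.41 to -3.31 in the others (0.867).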

How the results depend on the processing

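The number of member genes past the adjusted threshold was 5 lower with normexp and with the deposited table and 4 lower with the variance trend and robust moderation, and 0 under every other setting, including each left-out mouse. Members with an unadjusted limma p under 0.05 and lower numbered 8 with median scaling and 10 to 14 without 1 mouse. Those higher numbered 0 with normexp, median scaling, quantile normalization, the deposited table, and the variance trend, and 0 to 1 without 1 mouse (0 without MS 1, MS 4 or control 4). The median difference stayed below 0 in every setting, between -0.18 and -0.12 without 1 mouse. The sign turned for Gstp2 with median scaling (0.031) and without control 2 (0.000464) or control 3 (0.013), within a range of -0.048 to 0.013 without 1 mouse, and for Gsr with the mean over its probes (-0.021). Taking the percentile over all spots was added after seeing the data and kept these counts. No paired analysis was possible because the labels give no replicate numbers shared between the groups. The slide column as a block, where each column holds 1 MS and 1 control array, is a position on the slide and gave 14 members lower and 1 higher at the unadjusted p and 0 past the adjusted threshold. Whole-array calls numbered 400 with normexp and 3 in the fit reported. The cause of these shifts was not tested.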
